A study of Mus musculus with 4 samples.

Results

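Chromatin accessibility was examined at 10 chemokine and cytokine genes that fibroblasts use to signal to immune and stromal cells. They were the chemokine genes Ccl2, Ccl7, Ccl5, Cxcl1, Cxcl5 and Cxcl12, the cytokine genes Il6, Lif and Il33, and Il1rl1, which encodes the receptor for IL-33. The genes were chosen by name, with earlier results of these data known. A site, that is, a merged region of ATAC-Seq signal, was taken when it overlapped the body of a gene in the GENCODE mouse annotation (mm10) or lay within 30 kb of one of its transcription start sites (TSSs). This gave 65 of the 82325 sites in the table. Counted per gene there were 74, because Ccl2 and Ccl7 lie next to each other and shared 9 sites.

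ATAC-Seq uses the Tn5 transposase to cut open chromatin, and the signal over a site follows how often it was cut. The cells were mouse embryonic fibroblasts (MEFs) of a C57bl6 background, taken from mid-gestation embryos and immortalized by transfection with a plasmid that carries SV40 T antigen, which all lines of both genotypes therefore share. Lines from HAT1+/+ embryos (WT, n = 2) were compared with lines from HAT1-/- embryos (KO, n = 2), grown in the same serum medium with no added stimulus. HAT1 acetylates newly made histones before they are built into chromatin. Each library came from a separate line. The p-values and SEs come from limma, which drew each variance in part from all sites or gene totals of like signal. They therefore do not measure the spread between these few lines alone. A property of a line cannot be told apart from a property of its genotype. With n = 2, agreement of both lines of a genotype does not settle it.

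All values are normalized counts, which are read counts per site that the authors scaled per library and rounded. The number of reads in sites, estimated from the spacing of low values, was about 9420000 and 11410000 in the 2 WT libraries. It was only 7830000 and 5650000 in KO replicates 1 and 2, so counting error was larger in both KO lines. Reads outside the sites are not in these numbers. Markers of cell types were read at promoter sites. All 8 fibroblast markers had one (Col1a1, Col1a2, Pdgfra, Pdgfrb, Thy1, Vim, Twist1 and Prrx1). Their summed normalized counts were 2004 and 2358 in the WT lines and 2419 in each KO line. Both KO lines thus lay above both WT lines in this sum too, with WT replicate 1 lowest. Of the 8 markers only Vim had both KO lines above both WT lines, with 759 and 810 in WT and 977 and 919 in KO. At the other fibroblast markers the genotypes overlapped. The part of the difference in this sum in the cytokine values was not tested. The leukocyte markers Ptprc, Adgre1 and Spi1 and the muscle markers Myod1 and Des had none. Of the other leukocyte markers, Cd68 and Csf1r had promoter sites with summed normalized counts of 184 to 271, higher in WT replicate 1 and KO replicate 1 than in the other two lines. The 3 endothelial markers summed to 181 to 227 and the 3 epithelial markers to 112 to 196, and the genotypes overlapped in both of these lists. The lists differ in length, so their sums cannot be compared. Per kb of site the mean ran from 125.2 to 655.3 at the fibroblast markers and from 162.2 to 338.5 at Cd68 and Csf1r. It ran from 97.1 to 136.0 at the endothelial and from 79.4 to 144.1 at the epithelial markers. The fibroblast range overlapped each of the others, so a promoter site alone did not single out fibroblasts.

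Chemokines are small secreted proteins that draw leukocytes along a gradient. The CC chemokines CCL2, CCL7 and CCL5 attract monocytes and T cells, CXCL1 and CXCL5 attract neutrophils, and CXCL12 retains hematopoietic cells and lymphocytes near stromal cells. IL-6 and LIF signal through the shared receptor chain gp130 to JAK kinases and STAT3, and IL-33 is a nuclear alarmin that, once released, binds the receptor encoded by Il1rl1. In fibroblasts several of these genes are classical targets of NF-kB and AP-1, and of C/EBP factors, which bind their promoters and nearby enhancers after stimulation.

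The sequences of the elements on which the results turn are shown first. Promoter sequences are the 250 bases before the start site, from RefSeq (GRCm38.p6, the assembly named mm10), where 6 of the 10 genes were found with 8 promoters, and sequences for Ccl2, Ccl5, Ccl7 and Cxcl5 are not shown. Site sequences are the central 200 bases of a site, read from the same assembly. All are printed 5′ to 3′ on the plus strand. Capitals mark matches on either strand to the NF-kB letters (GGG and CC set 5 bases apart, with T as the fourth of the 5), the AP-1 letters TGANTCA, the C/EBP letters TTGCNNAA, the STAT letters TTCNNNGAA, the TATA letters TATAAA or the GC box letters GGGCGG, and matches may overlap.

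The Cxcl1 and Il6 promoters, which lay in a site, are shown because they carry NF-kB matches and differed in how far the lines spread.
Cxcl1 promoter, chr5:90890995-90891244: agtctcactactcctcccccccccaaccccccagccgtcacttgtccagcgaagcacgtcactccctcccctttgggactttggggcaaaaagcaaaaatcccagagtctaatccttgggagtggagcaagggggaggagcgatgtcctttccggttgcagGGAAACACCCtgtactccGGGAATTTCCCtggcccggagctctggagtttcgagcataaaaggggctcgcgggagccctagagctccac
Il6 promoter, chr5:30012864-30013113: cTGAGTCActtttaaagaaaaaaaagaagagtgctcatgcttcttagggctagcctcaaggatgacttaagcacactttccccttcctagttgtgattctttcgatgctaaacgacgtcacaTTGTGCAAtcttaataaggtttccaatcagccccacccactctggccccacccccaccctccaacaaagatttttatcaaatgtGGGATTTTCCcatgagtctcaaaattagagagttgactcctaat
In the Cxcl1 promoter the NF-kB matches began 89, 71 and 70 bases before the start site, and the last 2 overlapped. In the Il6 promoter an NF-kB match began 44 bases, a C/EBP match 128 bases and an AP-1 match 249 bases before the start site.

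Il1rl1 has a distal and a proximal promoter, and both are shown because accessibility was recorded at only the proximal one.
Il1rl1 distal promoter, chr1:40429320-40429569: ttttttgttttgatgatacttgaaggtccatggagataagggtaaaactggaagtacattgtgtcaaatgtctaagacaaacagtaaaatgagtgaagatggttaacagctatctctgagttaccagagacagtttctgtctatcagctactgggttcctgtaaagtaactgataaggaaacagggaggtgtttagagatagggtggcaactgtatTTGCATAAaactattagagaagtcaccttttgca
Il1rl1 proximal promoter, chr1:40439379-40439628: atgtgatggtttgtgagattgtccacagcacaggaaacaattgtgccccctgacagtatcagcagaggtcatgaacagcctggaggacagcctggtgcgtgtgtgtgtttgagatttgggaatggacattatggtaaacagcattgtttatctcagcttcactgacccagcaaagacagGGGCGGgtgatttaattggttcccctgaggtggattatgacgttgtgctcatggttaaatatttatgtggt
The distal promoter held a C/EBP match 34 bases before its start site, and the proximal promoter held a GC box 71 bases before its start site.

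The centres of the sites with the highest mean normalized counts at Ccl2, Cxcl1 and Il1rl1 are shown. The first is shown because it belongs to the pair of genes whose totals had the highest signal. The other 2 are shown because they had higher values in KO at an unadjusted p under 0.05.
Ccl2 upstream site, chr11:82033034-82033233: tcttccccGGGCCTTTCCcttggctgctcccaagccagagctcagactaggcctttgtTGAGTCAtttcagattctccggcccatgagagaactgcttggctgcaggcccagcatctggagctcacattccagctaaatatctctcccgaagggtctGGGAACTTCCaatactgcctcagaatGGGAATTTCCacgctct
Cxcl1 upstream site, chr5:90876438-90876637: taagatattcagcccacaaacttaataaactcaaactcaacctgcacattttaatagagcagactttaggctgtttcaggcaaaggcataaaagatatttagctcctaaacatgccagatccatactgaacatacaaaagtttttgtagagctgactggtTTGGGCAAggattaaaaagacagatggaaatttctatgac
Il1rl1 intronic site, chr1:40444912-40445111: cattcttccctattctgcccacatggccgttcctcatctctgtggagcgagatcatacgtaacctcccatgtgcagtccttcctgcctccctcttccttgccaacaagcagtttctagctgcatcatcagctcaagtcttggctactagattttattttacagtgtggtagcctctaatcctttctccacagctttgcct
The Ccl2 site held 3 NF-kB matches and 1 AP-1 match, the Cxcl1 site held 1 C/EBP match, and the Il1rl1 site held none of the 6 motifs.

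Over all sites, NF-kB letters were found in the central 200 bases of 9.62% of sites, against 11 of the 65 cytokine sites (16.9%). Those 11 included the sites over the start sites of Ccl2, Cxcl1, Cxcl5, Cxcl12 and Il6. AP-1 letters were found in 22 cytokine sites (33.8%) and in 32.4% of all sites. C/EBP letters were found in 7 (10.8%) against 8.3%, STAT letters in 5 (7.69%) against 6.53%, TATA letters in 6 (9.23%) against 9.63% and GC boxes in 6 (9.23%) against 13.5%. Among the 32851 promoters in the RefSeq table, NF-kB letters were in 14.9%, AP-1 letters in 6.75%, C/EBP letters in 9.56%, STAT letters in 7.02%, TATA letters in 12.4% and GC boxes in 32.7%. Of the 8 promoters of the cytokine genes, 3 held NF-kB, 2 AP-1, 3 C/EBP, 0 STAT, 2 TATA and 2 GC box letters. These are matches of letters, and binding was not measured.

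No site of the 10 genes was called differentially accessible between KO and WT lines. A call in limma, fitted to all sites on log2(value + 1), required an unadjusted p under 0.01 together with a log2 fold change past 1 in either direction. Of the 65 sites 0 were called, where 0.373% of all sites were. At an unadjusted p under 0.05 there were 3 sites (4.62%), against 3.13% of all sites, with 2 higher in KO (1.54% of all sites were) and 1 lower (1.59% were), and limma without an intensity trend gave 0. The adjusted p (Benjamini-Hochberg over all sites) was 1 at every one of the 65. Of all 82325 sites 0 had an adjusted p under 0.05, so this does not set the cytokine sites apart. A change in the share of cells with a site open and a change in how open it is in each cell cannot be told apart in these bulk libraries.

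The direction of the small differences was uneven. The log2 fold change of KO against WT was above 0 at 50 of 65 sites (76.9%), against 50.7% of all sites, 51.1% of the sites in the windows of all protein-coding genes, and 59.4% of sites whose mean was no lower than the overall median. Of the 40 cytokine sites with such higher signal, 34 (85.0%) had values above 0. Both KO lines lay above both WT lines at 18 sites (27.7%), against 14.6% of all sites, and below both at 3 (4.62%), against 14.3%. Among all sites with such higher signal these shares were 19.6% and 10.2%. Of the 40 cytokine sites with higher signal they were 13 (32.5%) and 1 (2.5%). A log2 fold change past 1 in either direction was found at 3 sites (4.62%), against 6.42% of all sites. The median log2 fold change was 0.26, with a range from -1.60 to 1.40, against 0.01 over all sites. Without the windows of Ccl2 and Ccl7, 36 of 51 sites (70.6%) had values above 0 and the median was 0.16.

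Lines of one genotype also differed. The median absolute log2 difference between the WT lines was 0.46 at the cytokine sites, and between the KO lines 0.49, against 0.34 for the absolute difference between the genotype means. Over all sites the same medians were 0.34, 0.43 and 0.25. A difference between means of 2 lines varies less than one between single lines, so the last value of each set cannot be read against the other two. WT replicate 1 alone was the lowest of the 4 lines at 30 of 65 sites (46.2%), against 22.5% of all sites, and without it 41 of 65 had values above 0 (63.1%), beside 49.5% of all sites. Scaling all libraries to equal totals also left 41 of 65 above 0 (63.1%), beside 42.9% of all sites, and moved the median of all sites to -0.06.

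**Figure D1:**
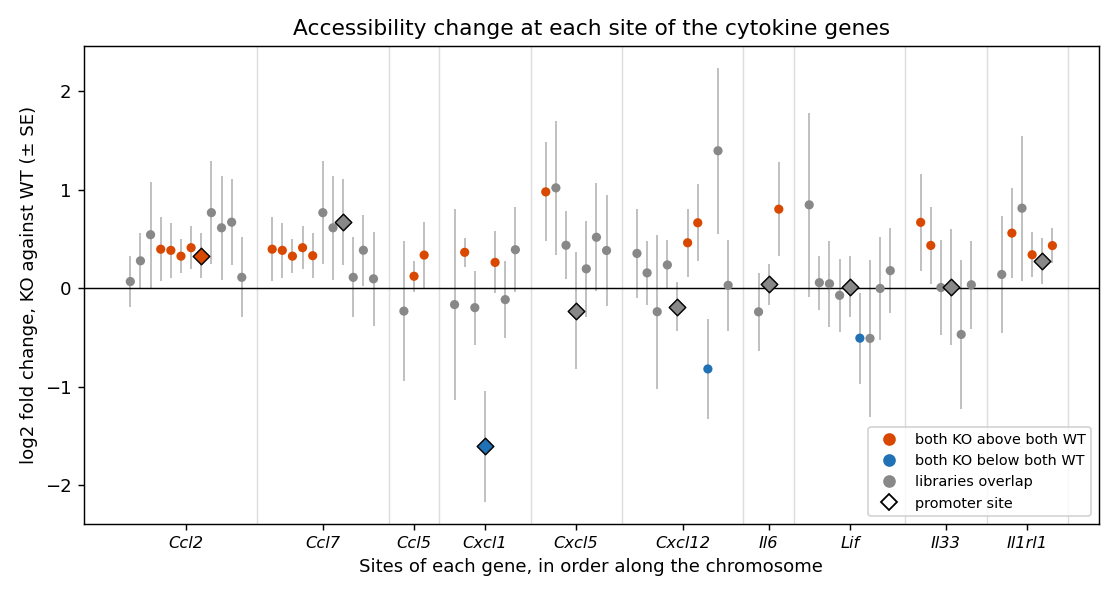
Log2 fold change (KO against WT, y axis) of each site of the 10 genes, in order along the chromosome within each gene (x axis), with bars for the standard error from limma and n = 2 lines per genotype. Sites with both KO lines above both WT lines are orange, those with both below are blue, those that overlap are grey, and diamonds are promoter sites. The points of Ccl2, Ccl7 and Il1rl1 all lie above 0, and the Cxcl1 promoter site lies lowest at -1.60.

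Summed over the sites of a gene, signal was highest at the Ccl2 and Ccl7 windows and lowest at Il33. The numbers of sites differ, with 12 at Ccl2, 11 at Ccl7 and 6 each at Il1rl1 and Il33. The order of the sums is therefore not one of signal per site. A total was fitted for each of the 18325 protein-coding genes with a site, and none of the 10 was called, against 0.256% of all gene totals. At an unadjusted p under 0.05 there were 3 (Ccl2, Ccl7 and Il1rl1), all higher in KO, where 2.46% of all totals were higher in KO and 4.13% passed in either direction. In 5 of the 10 (Ccl2, Ccl7, Ccl5, Cxcl12 and Il1rl1) both KO lines lay above both WT lines, against 24.1% of all totals, and none lay below, against 11.1%. The log2 fold change was above 0 in 8 of 10, against 62.3% of all totals. Adjusted p-values lay between 0.914 and 0.995, and 0 of all 18325 totals had one under 0.05. Limma without an intensity trend gave 0 of the 10 totals with an unadjusted p under 0.05.

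**Figure D2:**
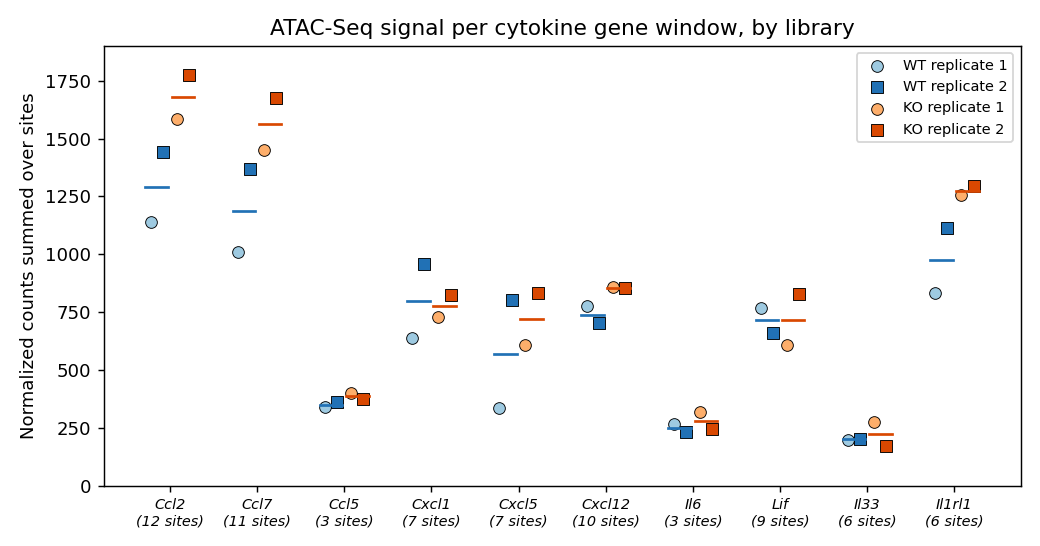
Normalized counts summed over the sites of each gene (y axis, linear from 0) in the 4 lines, for the 10 genes with their numbers of sites (x axis). Blue marks are WT lines, orange marks KO lines, circles replicate 1, squares replicate 2, and horizontal lines the mean of each genotype. Both KO lines are above both WT lines at Ccl2, Ccl7, Ccl5, Cxcl12 and Il1rl1, and WT replicate 1 is far below the other lines at Cxcl5, with 334 normalized counts.

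Of the 10 genes, 9 had a site at a promoter, and per kb of site the signal there varied widely. The mean over the 4 lines was 464 normalized counts per kb at Ccl2, with a range of 376 to 573, and 339 at Il1rl1 (255 to 386). Next came Il6 with 222 (206 to 241), Lif with 219 (178 to 260), Ccl7 with 218 (114 to 336) and Cxcl12 with 166 (129 to 185). The lowest were Cxcl1 with 129 (42.4 to 300), Cxcl5 with 112 (63.9 to 189) and Il33 with 93.0 (54.2 to 141). Il1rl1 and Il6 were the only neighbours in this order whose ranges over the lines did not overlap. Ccl5 had no promoter site, and its nearest site began 3.96 kb upstream of the TSS.

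**Figure D3:**
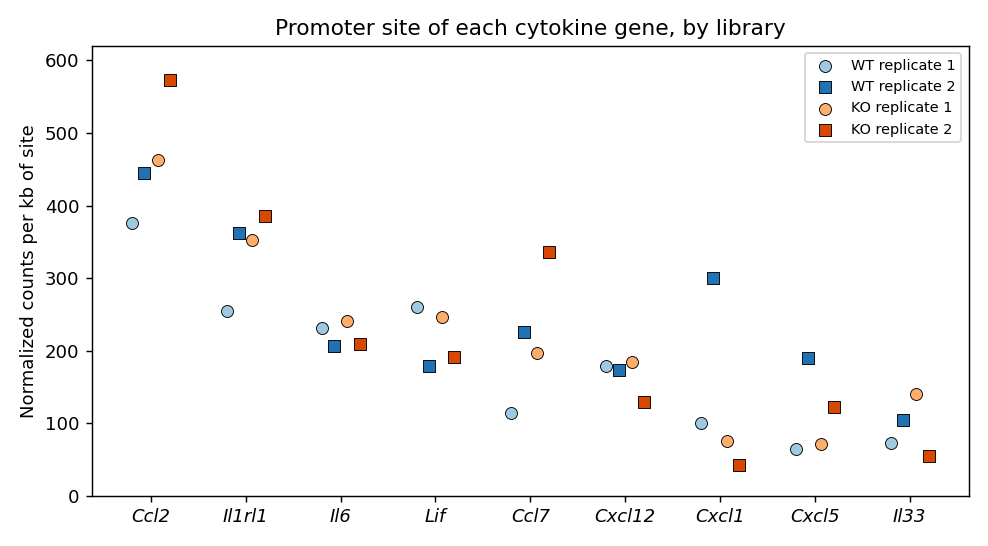
Normalized counts per kb at the promoter site of 9 genes (x axis, in order of the mean) in the 4 lines (y axis, linear from 0). Blue marks are WT lines, orange marks KO lines, circles replicate 1 and squares replicate 2. Values run from 573 at Ccl2 in KO replicate 2 to 42.4 at Cxcl1 in KO replicate 2, and the 2 WT lines are furthest apart at Cxcl1.

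The CC chemokine genes Ccl2 (ENSMUSG00000035385.5, chr11:82035571-82037453, plus strand) and Ccl7 (ENSMUSG00000035373.2, chr11:82045712-82047525, plus strand) encode monocyte attractants that both signal through the receptor CCR2. Their windows held 14 different sites, all with values above 0 for KO against WT, between 0.07 and 0.77 on the log2 scale. The Ccl2 total was 1139 and 1440 normalized counts in the WT lines and 1584 and 1775 in the KO lines. Both KO lines were above both WT lines, and the WT lines differed from each other by more than KO replicate 1 did from WT replicate 2. The Ccl2 log2 fold change was 0.39 (SE 0.142, adjusted p = 0.914), and 0.22 without WT replicate 1. The Ccl7 total was 1010 and 1368 in WT and 1451 and 1674 in KO, a log2 fold change of 0.41 (SE 0.166, adjusted p = 0.914). It was 0.19 without WT replicate 1 and 0.63 without WT replicate 2. The 2 totals share 9 sites and are not separate observations.

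The site with the most normalized counts at this locus lay 2.44 kb upstream of Ccl2 (chr11:82032808-82033460). Its central 200 bases are those printed above with 3 NF-kB matches. Per kb of site it had a mean of 435 normalized counts, below the 464 of the Ccl2 promoter site. It had 230 and 275 normalized counts in WT and 306 and 325 in KO. Both KO lines were above both WT lines, and KO replicate 1 was closer to WT replicate 2 than the WT lines were to each other. The log2 fold change was 0.33 (SE 0.171).

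At the Ccl2 promoter site (chr11:82035288-82035683), which overlaps the TSS, values were 149 and 176 in WT and 183 and 227 in KO. The lines did not overlap by genotype, and KO replicate 1 was 7 normalized counts above WT replicate 2. KO against WT gave a log2 fold change of 0.33 (SE 0.226). Another site within 1 kb of the TSS (chr11:82034451-82034874) had the least spread within genotypes, with 136 and 129 in WT and 173 and 180 in KO, a log2 fold change of 0.41 (SE 0.217).

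At the Ccl7 promoter site (chr11:82045446-82045918), values were 54 and 107 in WT and 93 and 159 in KO. The genotypes overlapped here, and WT replicate 1 was the lowest line. For KO against WT the log2 fold change was 0.67 (SE 0.439), and it was 0.18 without WT replicate 1 and 1.16 without WT replicate 2. WT replicate 1 alone was the lowest line at 11 of the 14 sites of the pair (78.6%). Of the 25 consecutive sites centred on the highest site, which span 231.4 kb, 11 lay outside the 2 windows, and 8 of these had values above 0, with a mean log2 fold change of 0.17. Ccl11, a neighbouring eosinophil attractant whose window holds 10 of these sites, had a total of 935 and 1286 in WT and 1322 and 1591 in KO.

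**Figure D4:**
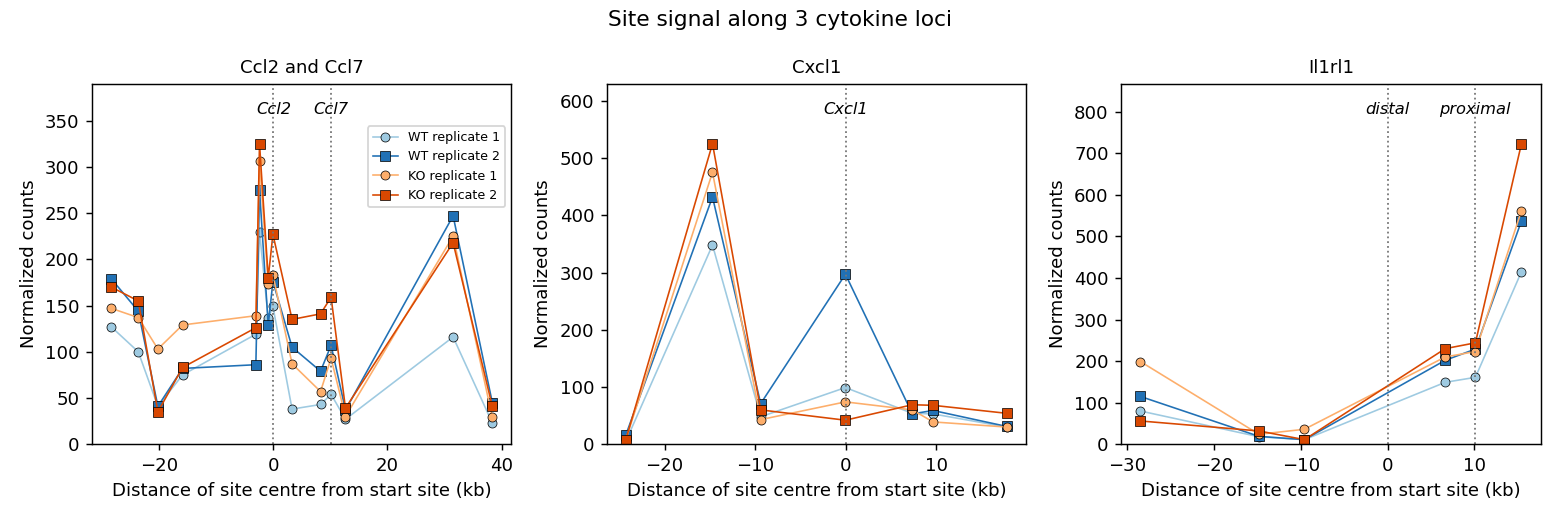
Normalized counts (y axis, linear from 0) at each site of the Ccl2 and Ccl7, Cxcl1 and Il1rl1 loci, placed by the distance of the site centre from the Ccl2, Cxcl1 or distal Il1rl1 TSS in kb (x axis). Each line of symbols is 1 library, lines only join its sites, and dotted lines mark TSSs. WT replicate 1 is lowest at most sites of the Ccl2 and Ccl7 locus, WT replicate 2 stands alone at the Cxcl1 promoter with 297 normalized counts, and all 4 lines peak at the intronic Il1rl1 site.

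Ccl5 (ENSMUSG00000035042.2, chr11:83525778-83530518, minus strand) encodes RANTES, an attractant of T cells and monocytes. It had 3 sites, none at its promoter. Its total was 339 and 362 normalized counts in WT and 400 and 375 in KO. The genotypes did not overlap, with a log2 fold change of 0.14 (SE 0.152, adjusted p = 0.919). The highest site (chr11:83534482-83535335) had 267 and 302 in WT and 308 and 310 in KO, a log2 fold change of 0.12 (SE 0.157).

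Cxcl1 (ENSMUSG00000029380.11, chr5:90891241-90893115, plus strand), which encodes the neutrophil attractant KC, held the only cytokine site with a lower value in KO at an unadjusted p under 0.05, and it was the promoter site (chr5:90890714-90891704). The values were 99 and 297 normalized counts in the WT lines and 74 and 42 in the KO lines. Both KO lines were below both WT lines, but WT replicate 2 stood far above the other three and the WT lines differed more from each other than WT replicate 1 did from either KO line. The log2 fold change was -1.60 (SE 0.564, adjusted p = 1). Without WT replicate 2 it was -0.82, and without WT replicate 1 it was -2.39. It was -2.01 without KO replicate 1, -1.20 without KO replicate 2 and -1.60 without an intensity trend, and the unadjusted p was under 0.05 in none of these 3 settings nor without WT replicate 2.

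The other named Cxcl1 site pointed the other way. It lay 14.7 kb upstream (chr5:90875875-90877202), in the window of the neutrophil attractant gene Cxcl2 as well, and had 348 and 432 normalized counts in WT and 475 and 525 in KO. Both KO lines were above both WT lines, with a log2 fold change of 0.36 (SE 0.150, adjusted p = 1), and 0.21 without WT replicate 1. The remaining 5 sites had log2 fold changes of -0.20 to 0.39. Summed over its 7 sites Cxcl1 had 637 and 959 in WT and 729 and 826 in KO. Both KO lines lay between the WT lines, and the log2 fold change was -0.01 (SE 0.204, adjusted p = 0.995).

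Cxcl5 (ENSMUSG00000029371.7, chr5:90759360-90761624, plus strand), another neutrophil attractant of the same chromosome 5 cluster, had the largest absolute log2 fold change of the 10 totals together with the widest spread between WT lines. Its total was 334 and 801 normalized counts in WT and 609 and 831 in KO. WT replicate 1 was low at nearly every site, being alone the lowest line at 6 of 7, while WT replicate 2 was close to KO replicate 2. KO against WT had a log2 fold change of 0.46 (SE 0.392, adjusted p = 0.914), and -0.17 without WT replicate 1. The promoter site (chr5:90759162-90759552) had 25 and 74 in WT and 28 and 48 in KO, a log2 fold change of -0.23 (SE 0.593). The highest site, 4.89 kb downstream of the TSS (chr5:90763881-90764649), had 102 and 306 in WT and 194 and 212 in KO, with both KO lines between the WT lines. Its log2 fold change was 0.20 (SE 0.487). A site 8.71 kb upstream (chr5:90750432-90750905) had 35 and 150 in WT and 110 and 200 in KO.

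The gene totals with the pattern most like that of Cxcl5 were sought by the root mean square (RMS) difference of centred log2 totals over the 4 lines. The platelet chemokine genes Ppbp and Pf4 had an RMS of 0, because their windows held the same 7 sites. The next was 1700025B11Rik on chromosome 15, with 65 and 144 in WT, 118 and 156 in KO, and an RMS of 0.05.

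Cxcl12 (ENSMUSG00000061353.11, chr6:117168535-117181367, plus strand) encodes SDF-1, the ligand of CXCR4 that stromal cells make steadily. Over its 10 sites the total was 776 and 702 normalized counts in WT and 857 and 855 in KO. Both KO lines were above both WT lines, with a log2 fold change of 0.21 (SE 0.116, adjusted p = 0.914), which was the smallest SE of the 10 genes. The promoter site (chr6:117168429-117169474) was also the highest by normalized counts, though not per kb of site. It had 187 and 181 in WT and 193 and 135 in KO, so that KO replicate 2 alone was low. Its log2 fold change was -0.19 (SE 0.250). In 2 exonic sites 3′ of the promoter both KO lines were above both WT lines, with 48 and 53 in WT against 58 and 84 in KO at chr6:117173909-117174291 and 65 and 36 against 83 and 72 at chr6:117175153-117175713. A further exonic site (chr6:117178485-117178684) went the other way, with 38 and 22 in WT and 17 and 15 in KO. The highest log2 fold change of the 65 sites, 1.40 (SE 0.844), was 17.09 kb downstream of the TSS (chr6:117185415-117185913) and came from KO replicate 1 alone, with 11 and 14 in WT and 82 and 14 in KO.

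Il6 (ENSMUSG00000025746.11, chr5:30013114-30019981, plus strand) encodes IL-6, a main fibroblast cytokine of the acute phase. Its promoter site (chr5:30012714-30013532) was open to a like extent in all lines, with 189 and 169 normalized counts in WT and 197 and 171 in KO. The genotypes overlapped throughout, and the log2 fold change was 0.04 (SE 0.211). Of its other 2 sites, the one 20.77 kb downstream of the TSS (chr5:30033805-30034374) had 40 and 31 in WT and 94 and 41 in KO, where KO replicate 1 stood apart. Its log2 fold change was 0.80 (SE 0.479). Summed, Il6 had 268 and 231 in WT and 317 and 245 in KO, a log2 fold change of 0.16 (SE 0.209, adjusted p = 0.935).

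Lif (ENSMUSG00000034394.14, chr11:4257557-4272514, plus strand) encodes leukemia inhibitory factor, the cytokine that keeps mouse embryonic stem cells undifferentiated. Its total was 767 and 662 normalized counts in WT and 606 and 828 in KO. The KO lines lay on either side of the WT lines, and the log2 fold change was -0.01 (SE 0.179, adjusted p = 0.995). The promoter site (chr11:4266503-4267013), beside an internal TSS, had 133 and 91 in WT and 126 and 98 in KO, a log2 fold change of 0.01 (SE 0.310). The first TSS of the gene had its nearest site 1.17 kb away, in the first intron (chr11:4258724-4259195), and there the lines were almost equal with 85 and 86 in WT and 86 and 92 in KO. The highest site, 24.82 kb downstream of a TSS (chr11:4291649-4292190), had 82 and 177 in WT and 109 and 171 in KO. Its log2 fold change was 0.18 (SE 0.430). At chr11:4276307-4276945 the WT lines had 116 and 119, and the KO lines differed widely, with 32 and 209.

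Il33 (ENSMUSG00000024810.16, chr19:29925114-29960718, plus strand) had the lowest signal of the 10 genes, with no site value above 94. Its total was 198 and 204 normalized counts in WT and 275 and 171 in KO. The WT lines were nearly equal and lay between the KO lines, and the log2 fold change was 0.11 (SE 0.270, adjusted p = 0.965). The distal TSS, where the first exon of the longest transcripts begins, had no site within 7.28 kb. The internal promoter site (chr19:29945600-29945876) had 20 and 29 in WT and 39 and 15 in KO, a log2 fold change of 0.01 (SE 0.586). The highest site, in an intron (chr19:29948170-29948769), had 93 and 51 in WT and 94 and 53 in KO, with a log2 fold change of 0.03 (SE 0.445). KO replicate 1 alone was the highest line at 5 of the 6 sites. Over the 2573 sites of chromosome 19 that line had a median of 0.35 above the site mean on the log2 scale while the other three lay at -0.08 to -0.14, and the part of this offset in the Il33 values was not tested. On chromosomes 1, 5, 6 and 11, which carry the other genes, the median log2 fold change of all sites lay between -0.01 and 0.02.

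Il1rl1 (ENSMUSG00000026069.15, chr1:40429570-40465415, plus strand) encodes ST2, the IL-33 receptor, and was the receptor gene of the set. All of its 6 sites had values above 0. The total was 834 and 1113 normalized counts in WT and 1254 and 1296 in KO. The KO lines were both above the WT lines and were close to each other. For the total the log2 fold change was 0.40 (SE 0.154, adjusted p = 0.914), and it was 0.20 without WT replicate 1 and 0.61 without WT replicate 2.

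An intronic site 4.38 kb downstream of a proximal TSS (chr1:40444653-40445372) had the highest signal of the 65 sites, with 777 normalized counts per kb. It had 415 and 537 normalized counts in WT and 562 and 723 in KO. The KO lines were both above the WT lines, and KO replicate 1 was closer to WT replicate 2 than the WT lines were to each other. A log2 fold change of 0.43 (SE 0.176, adjusted p = 1) was found, and 0.25 without WT replicate 1 or without KO replicate 2. This is the site whose central 200 bases held none of the motifs.

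At the proximal promoter of Il1rl1 (chr1:40439388-40440019), values were 161 and 229 in WT and 223 and 244 in KO. WT replicate 2 lay between the KO lines, and the log2 fold change was 0.28 (SE 0.234). The distal promoter printed above had no site within 6.32 kb. A site 33 bases before another TSS of the gene (chr1:40435889-40436556) had 149 and 202 in WT and 210 and 230 in KO, a log2 fold change of 0.34 (SE 0.229). Far upstream (chr1:40400697-40401413) the KO lines diverged, with 80 and 115 in WT and 199 and 56 in KO. The neighbouring gene Il18r1, the IL-18 receptor, shares the intronic and promoter sites, which cannot be assigned to one of the genes from accessibility alone.

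The ligands and receptors of the same pathways and their signalling genes were read from a list of 46 other genes, all of which had sites. Of their 291 sites, 24 were also cytokine sites above. None was called, against 0.373% of all sites, and 5 had an unadjusted p under 0.05 (1.72%), against 3.13%. Of those 5, 2 were the Cxcl1 sites already described. The others, with higher values in KO, were near the NF-kB subunit genes Nfkb1 and Nfkb2 and near Il6st, which encodes gp130. No total of the 46 genes was called or had an unadjusted p under 0.05.

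The site at Nfkb1 (chr3:135711683-135712954) had 161 and 168 normalized counts in WT and 286 and 232 in KO, a log2 fold change of 0.64 (adjusted p = 1). At Nfkb2 (chr19:46321640-46321976) the values were 43 and 42 in WT and 85 and 86 in KO, a log2 fold change of 0.99 (adjusted p = 1). The lines of each genotype were close to each other there, and the site lies on chromosome 19 with the offset of KO replicate 1. At Il6st (chr13:112447094-112447634) there were 79 and 86 in WT and 184 and 114 in KO, a log2 fold change of 0.81 (adjusted p = 1).

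Of all gene totals 62.3% had values above 0. Among the 17 further ligand genes, 12 totals had values above 0 and the median log2 fold change of the totals was 0.08, against 0.05 over all gene totals. Ccl20, which attracts CCR6-bearing lymphocytes, was furthest from 0, with 190 and 307 in WT and 293 and 518 in KO, a log2 fold change of 0.69 (SE 0.339, adjusted p = 0.914). Its genotypes overlapped. Among the 17 signalling genes, 15 totals had values above 0 with a median of 0.13. One was Nfkb2, on chromosome 19 with the offset of KO replicate 1. It had 1732 and 1576 in WT and 2362 and 1740 in KO, a log2 fold change of 0.30 (SE 0.160, adjusted p = 0.914). The part of the offset in this value, in the 15 of 17 totals and in the share of signalling sites was not tested. KO replicate 1 alone stood high there. It was also the highest line at Rela and Jak2, which had larger log2 fold changes of 0.35 and 0.36. Rela had 1340 and 1165 in WT and 1889 and 1350 in KO. Jak2 had 607 and 669 in WT and 948 and 706 in KO. Among the 12 receptor genes, 6 totals had values above 0 and the median was near 0. Of the 58 receptor sites 24 (41.4%) were above 0, against 50.7% of all sites. The shares were 66.7% of the 108 ligand sites and 68.0% of the signalling sites. The ligand sites hold all 24 sites shared with the cytokine genes, so their share is not separate from the cytokine result. Cxcr4, the receptor of CXCL12, had 191 and 127 in WT and 108 and 114 in KO, with both KO lines below both WT lines and a log2 fold change of -0.49 (SE 0.287, adjusted p = 0.914).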

How the data were processed

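The 4 ATAC-Seq libraries (2 WT and 2 KO immortalized MEF lines) were read from 1 deposited table of 82325 merged sites. The study methods and the submitters' processing notes name BWA 0.7.12 (mm10) for the alignment of read pairs, MACS2 2.1.0 for peaks and DESeq2 for the comparison. Read filters and the handling of the Tn5 offset were not given in the sources used here. The deposited values per library are a score, since the authors divided the counts by a factor per library and rounded them, so no count test was run. The deposited table also holds the authors' fold changes and p-values, which were not used.

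Values were put on log2(value + 1), which understates changes of low sites, and fitted with limma 3.58.1 (intensity trend, two-sided, Benjamini-Hochberg over all sites or gene totals) in R 4.3.3, with pandas 2.3.3 and numpy 2.4.6 in Python 3.11.15. The script was tested on simulated data. Totals were sums over the sites of a gene. The number of reads in sites was estimated from gaps in the scaled whole numbers and is approximate. Named for each gene were the promoter site (overlapping a TSS or within 1 kb), the highest site and sites with an unadjusted p under 0.05. The highest site was the one with the highest mean normalized counts over the 4 lines, not divided by length. Other sites were chosen after their values were seen. The members and gene lists were chosen with earlier results of these data known. Replicates were numbered in accession order. Alternatives were other pseudocounts, scalings, filters, distances and leaving out each line.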

Additional observations from a re-analysis of the deposited data

How the results depend on the processing

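No cytokine site was called under other pseudocounts (8 or 0.5), scalings, centring, higher-signal sites alone, no intensity trend, distances of 10 or 100 kb, an adjusted p under 0.05, or, chosen after seeing the data, without the Ccl2 and Ccl7 windows. Leaving out 1 line gave 0 to 2, the 2, the Lif site at 4276307 and the Cxcl12 site at 117185415, being without KO replicate 2. No gene total or pathway site was called under the settings run. Log2 fold changes above 0 were found at 41 to 48 of 65 sites on leaving out 1 line, at 28 of 38 sites within 10 kb and at 107 of 159 within 100 kb. The median log2 fold change ranged from 0.14 (100 kb) to 0.37 (without WT replicate 2). Calls over all sites went from 307 to 115 with higher-signal sites alone, to 537 with no intensity trend, and to 36 to 612 on leaving out 1 line.

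The 3 gene totals with an unadjusted p under 0.05 numbered 0 with equal totals, quantile normalization, median centring or no intensity trend, and 0 to 4 on leaving out 1 line. At the upstream Cxcl1 and intronic Il1rl1 sites the unadjusted p was not under 0.05 with equal totals, quantile normalization, higher-signal sites alone or no intensity trend. Their log2 fold changes were 0.36 and 0.43 with higher-signal sites alone or no trend, as in the report, 0.30 and 0.36 with equal totals, and 0.22 and 0.26 with quantile normalization. With equal totals, log2 fold changes below 0 where they had been above it were -0.030 at the Il6 promoter site, -0.054 at the Lif promoter site, -0.054 at the Il33 promoter site and -0.033 at the Il33 intronic site. With quantile normalization they were -0.029 at Il6, -0.035 at Lif and -0.0007 at the Il33 intronic site. On leaving out 1 line, sites ranged from -0.99 to 0.54 (Cxcl5 promoter), -0.59 to 0.98 (Cxcl5 highest), -0.44 to 0.069 (Cxcl12 promoter), -0.063 to 0.14 (Il6 promoter), -0.26 to 0.29 (Lif promoter), -0.37 to 0.73 (Lif highest), -0.65 to 0.67 (Il33 promoter) and -0.39 to 0.46 (Il33 intronic). Totals ranged from -0.31 to 0.28 (Cxcl1), -0.17 to 1.09 (Cxcl5), -0.022 to 0.35 (Il6), -0.23 to 0.22 (Lif) and -0.23 to 0.45 (Il33). The cause was not tested. No paired analysis was possible because replicate names follow accession order and the line names in the labels share a number only between WT replicate 1 and KO replicate 2, with no statement of what it marks. With 2 lines per genotype and fewer estimated reads in sites in the KO libraries, no cytokine site or total had an adjusted p under 0.05. Over the whole series 0 sites and 0 gene totals did.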
